A study of Mus musculus with 9 samples.

Results

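Cntn2, Etv1, Irx3, Id2, Igfbp5, Cpne5, Ntm and Smoc2 are 8 genes used to mark the fast conduction system of the heart, the His bundle and the Purkinje fibres. They were taken by symbol from the expression table, and all 8 were found among its 34198 symbols. All 8 also passed the filter on low values, which kept 12925 symbols with at least 1 CPM (a gene's read count scaled to the same library sum everywhere) in at least 3 libraries. Bulk RNA was sequenced from microdissected atrioventricular (AV) nodes of C57BL/6J mice in 9 libraries, 3 per group. The first group came from Cd11bDTR mice, labelled macrophage-depleted, in which a diphtheria toxin receptor is driven by the Cd11b promoter. That promoter is active in macrophages and also in monocytes and neutrophils. The second group came from Cx3cr1 Cx43-/- mice, in which connexin 43 is removed from cells that express Cx3cr1, a receptor of resident macrophages. The third group came from control mice. By the design text, the 3 libraries of each group are biological replicates. The mice's age and sex, any pooling of nodes, the toxin's dose and timing, and whether the controls carried a transgene or received toxin are not given in the sources used here.

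The His bundle leaves the lower end of the AV node and passes the impulse to the bundle branches and the Purkinje fibres, which spread it quickly through the ventricles. A node cut out by hand can hold some of the bundle, so these genes bear on the tissue at the junction of slow and fast conduction. In the mouse, neuregulin signalling through ERBB receptors acts on the factor ETV1, and IRX3, TBX5, NKX2-5 and ID2 take part in setting the fast conducting state, with connexin 40 (Gja5) as its main gap junction protein.

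The libraries held 52126103 to 64939824 reads, and listed genes took 44.0%, 37.7% and 28.3% of them in Cd11bDTR libraries 7, 8 and 9. The share was 46.8% to 47.9% in Cx3cr1 Cx43-/- libraries and 42.8% to 48.7% in control libraries. Genes at 0 among the 12925 tested numbered 71, 393 and 218 in Cd11bDTR libraries 7, 8 and 9, against 5 to 12 in Cx3cr1 Cx43-/- libraries and 2, 192 and 8 in control libraries 1, 2 and 3. Over all tested genes the median log2 change came to -0.49 in Cd11bDTR against control nodes and 0.07 in Cx3cr1 Cx43-/- against control nodes, on the log2(CPM + 0.5) scale used throughout. The 7 macrophage markers, which check the labels, summed to 33.5 to 47.6 CPM in Cd11bDTR libraries, 297 to 391 CPM in Cx3cr1 Cx43-/- libraries and 194 to 296 CPM in control libraries. The 8 AV node markers, among them the pacemaker channel gene Hcn4 and the nodal factor gene Tbx3, summed to 58.0 to 98.8 CPM in Cd11bDTR, 186 to 232 CPM in Cx3cr1 Cx43-/- and 212 to 230 CPM in control libraries.

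Of the 8 genes, 7 were lower in macrophage-depleted Cd11bDTR nodes than in control nodes and 0 were higher (limma, adjusted p under 0.05). Among all tested genes, 33.0% were called lower and 3.23% higher in this comparison. That is 4261 lower and 417 higher genes, where scaling by the median of gene ratios gave 1675 lower and 1687 higher, and scaling to cardiomyocyte markers gave 1128 lower and 1988 higher. The same 7 genes had no overlap between the libraries of the groups, with all Cd11bDTR values below all control values, a pattern held by 38.0% of tested genes. The median change of the 8 genes was -1.67, beside -0.49 for all tested genes. Smoc2 was the gene that did not pass the test. In Cx3cr1 Cx43-/- against control nodes, 0 of the 8 genes passed it, where 0.00774% of all tested genes did. In bulk tissue, fewer cells of a type and less RNA per cell cannot be told apart.

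The upstream sequences of Igfbp5 and Ntm are shown because these genes, which encode a secreted binding protein and an adhesion protein, were among those with the largest falls and have windows clear of annotated exons. They are from RefSeq, build GRCm38.p6, while the processing notes name mm9, so only names link them to the expression values. Each is written 5′ to 3′ on the gene's strand, here the minus strand, and ends just before the start of the transcript, or before the first annotated exon. The capitals mark matches to any of 6 motifs.
Igfbp5 chr1:72874885-72875115: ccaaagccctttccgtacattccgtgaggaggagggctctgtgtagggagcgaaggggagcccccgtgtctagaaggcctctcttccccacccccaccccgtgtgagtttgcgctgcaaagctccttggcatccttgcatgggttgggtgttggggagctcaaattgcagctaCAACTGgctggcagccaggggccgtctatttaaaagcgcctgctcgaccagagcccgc
Ntm, downstream start, chr9:29412686-29412935: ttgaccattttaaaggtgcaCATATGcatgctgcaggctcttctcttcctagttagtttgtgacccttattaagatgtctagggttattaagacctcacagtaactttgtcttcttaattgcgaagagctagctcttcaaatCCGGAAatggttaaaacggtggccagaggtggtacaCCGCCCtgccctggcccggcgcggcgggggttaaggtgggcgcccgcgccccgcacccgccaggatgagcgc
Ntm, upstream start, chr9:29413453-29413702: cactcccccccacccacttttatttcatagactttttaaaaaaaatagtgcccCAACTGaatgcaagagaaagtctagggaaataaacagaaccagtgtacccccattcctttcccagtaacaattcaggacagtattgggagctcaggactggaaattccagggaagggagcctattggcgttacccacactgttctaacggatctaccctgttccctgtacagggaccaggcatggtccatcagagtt
The motifs were searched on both strands in the 250 bases before each start. They were the T-box half-site AGGTGT (found in 11.8% of all 32851 promoters), the NKX2-5 element TNAAGTG (10.1%), the ETS core CCGGAA (12%), the GATA site AGATAA (9.99%), the E-box CANNTG (66.2%) and the GC box GGGCGG (32.7%). The E-box and GC box were added after the first results were seen, and an E-box can overlap a T-box half-site. The ETS core lies 108 bases before the downstream Ntm start, the same window holds a GC box and an E-box, and the Igfbp5 window holds an E-box 77 bases before the start. Promoters were listed for 7 of the 8 genes, 9 in all, and none of the 9 holds the T-box, NKX2-5 or GATA letters. A match is a description of the letters, not of binding.

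The 3 regulators of transcription were followed first. Etv1, which encodes an ETS factor that promotes fast conduction downstream of neuregulin in the mouse, stood at 1.97, 5.06 and 4.39 CPM in Cd11bDTR libraries 7, 8 and 9. It stood at 9.0, 13.71 and 9.85 CPM in Cx3cr1 Cx43-/- libraries 4, 5 and 6, and at 11.89, 7.90 and 9.82 CPM in control libraries 1, 2 and 3. All 3 Cd11bDTR values were below all 6 others, with library 7 the lowest, while Cx3cr1 Cx43-/- and control values overlapped. The means were 3.81 ± 1.63 CPM in Cd11bDTR and 9.87 ± 2.0 CPM in control nodes (SD, n = 3 each). Etv1 fell in Cd11bDTR nodes by a fitted log2 difference of -1.33 ± 0.31 (SE; limma adjusted p = 0.00239). When each library was instead scaled to the mean log2 level of 8 cardiomyocyte markers (the cardiomyocyte list), the log2 change was -0.77 and no longer passed the test (limma adjusted p = 0.126). The call was also lost with median-of-ratios scaling (-0.88, limma adjusted p = 0.0634) and quantile normalization (-0.80, limma adjusted p = 0.0738), and so under 3 of the 4 rescalings tried.

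Irx3, which encodes a homeobox factor that raises Gja5 and represses Gja1 in the mouse His-Purkinje system, stood at 9.37, 3.05 and 4.82 CPM in Cd11bDTR libraries 7, 8 and 9. It stood at 13.18, 11.79 and 13.67 CPM in the Cx3cr1 Cx43-/- libraries, and at 12.21, 15.64 and 13.87 CPM in the control libraries. Cd11bDTR library 7 was the highest of its group but below every control library. The means were 5.75 ± 3.26 CPM in Cd11bDTR and 13.9 ± 1.72 CPM in control nodes (SD, n = 3 each). Irx3 fell in Cd11bDTR nodes by a fitted log2 difference of -1.33 ± 0.30 (SE; limma adjusted p = 0.00187). Without libraries 8 and 9 the log2 change was -0.54 and was not called (limma adjusted p = 0.116).

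Id2, which encodes a helix-loop-helix inhibitor needed with Tbx5 and Nkx2-5 for the mouse ventricular conduction system, stood at 20.98, 9.04 and 14.27 CPM in Cd11bDTR libraries 7, 8 and 9. It stood at 19.66, 28.15 and 23.89 CPM in the Cx3cr1 Cx43-/- libraries, and at 25.04, 21.62 and 22.87 CPM in the control libraries. Cd11bDTR library 7, at 20.98 CPM, came within 1 CPM of the lowest control library. Id2 fell in Cd11bDTR nodes by a fitted log2 difference of -0.71 ± 0.26 (SE; limma adjusted p = 0.0365), the weakest of the 7 calls. Without Cd11bDTR library 8 the log2 change was -0.41 and was not called (limma adjusted p = 0.214), and scaled to the cardiomyocyte list it was -0.14 (limma adjusted p = 0.658). The call was also lost without library 1, 2, 3, 6 or 9, each left out alone (limma adjusted p between 0.0508 and 0.117).

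The 2 adhesion genes were Cntn2 and Ntm. Cntn2, which encodes contactin-2, a cell adhesion molecule of the immunoglobulin superfamily used in the mouse to mark Purkinje cells, stood at 37.14, 44.49 and 30.43 CPM in Cd11bDTR libraries 7, 8 and 9. It stood at 135.16, 157.25 and 127.18 CPM in the Cx3cr1 Cx43-/- libraries, and at 137.41, 173.50 and 138.77 CPM in the control libraries. The highest Cd11bDTR value was below the lowest value of either other group. The means were 37.4 ± 7.03 CPM in Cd11bDTR and 149.9 ± 20.5 CPM in control nodes (SD, n = 3 each), and the log2 change was -2.0 ± 0.20 (SE, limma adjusted p = 2.43e-07). Ntm, which encodes neurotrimin of the IgLON adhesion family, stood at 1.55, 1.65 and 0.00 CPM in Cd11bDTR libraries 7, 8 and 9. These values rest on 90, 86 and 0 reads. Ntm stood at 5.94, 5.79 and 5.36 CPM in the Cx3cr1 Cx43-/- libraries and at 6.80, 6.12 and 7.20 CPM in the control libraries. It is listed at 0 in library 9, which allows up to 0.0462 CPM (3 reads, counting error only). Ntm fell in Cd11bDTR nodes by a fitted log2 difference of -2.47 ± 0.42 (SE; limma adjusted p = 0.000132). Without library 9 the log2 change was -1.78, and Ntm was still called (limma adjusted p = 0.000352). In voom, which models the inferred reads, the log2 change was -4.90 with library 9 kept in at 0 reads (adjusted p = 0.00840).

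Cpne5 encodes a copine, a protein that binds membranes in the presence of calcium. It stood at 7.63, 11.99 and 5.31 CPM in Cd11bDTR libraries 7, 8 and 9, at 31.27, 39.60 and 28.25 CPM in the Cx3cr1 Cx43-/- libraries and at 47.35, 39.66 and 42.04 CPM in the control libraries. Both mutant groups lay wholly below control, the Cx3cr1 Cx43-/- group by a narrow margin. The means were 8.31 ± 3.39 CPM in Cd11bDTR and 43.0 ± 3.94 CPM in control nodes (SD, n = 3 each), with a fitted log2 difference of -2.37 ± 0.25 (SE; limma adjusted p = 4.10e-07).

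Igfbp5 and Smoc2 encode secreted proteins. Igfbp5 encodes an insulin-like growth factor binding protein, and it stood at 65.56, 59.38 and 51.31 CPM in Cd11bDTR libraries 7, 8 and 9. It stood at 285.28, 379.92 and 328.25 CPM in the Cx3cr1 Cx43-/- libraries and at 389.03, 255.31 and 279.99 CPM in the control libraries. The Cd11bDTR values lay close together and far below both other groups. The log2 change in Cd11bDTR against control nodes was -2.36 ± 0.21 (SE, limma adjusted p = 2.96e-08). Smoc2, which encodes a calcium-binding matrix protein, stood at 53.84, 72.79 and 34.56 CPM in Cd11bDTR libraries 7, 8 and 9. It stood at 66.54, 60.75 and 71.19 CPM in the Cx3cr1 Cx43-/- libraries and at 60.20, 52.49 and 56.19 CPM in the control libraries. The Cd11bDTR values spread to both sides of the control range. The log2 change was -0.13 (95% interval -0.60 to 0.35, limma adjusted p = 0.678), so a change within that interval was not distinguishable from none. Its sign turned positive under all 4 rescalings of the libraries (to a common total of listed genes, by the median of gene ratios, to the cardiomyocyte list, and to a common quantile distribution), at 0.19 to 0.44.

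**Figure D1:**
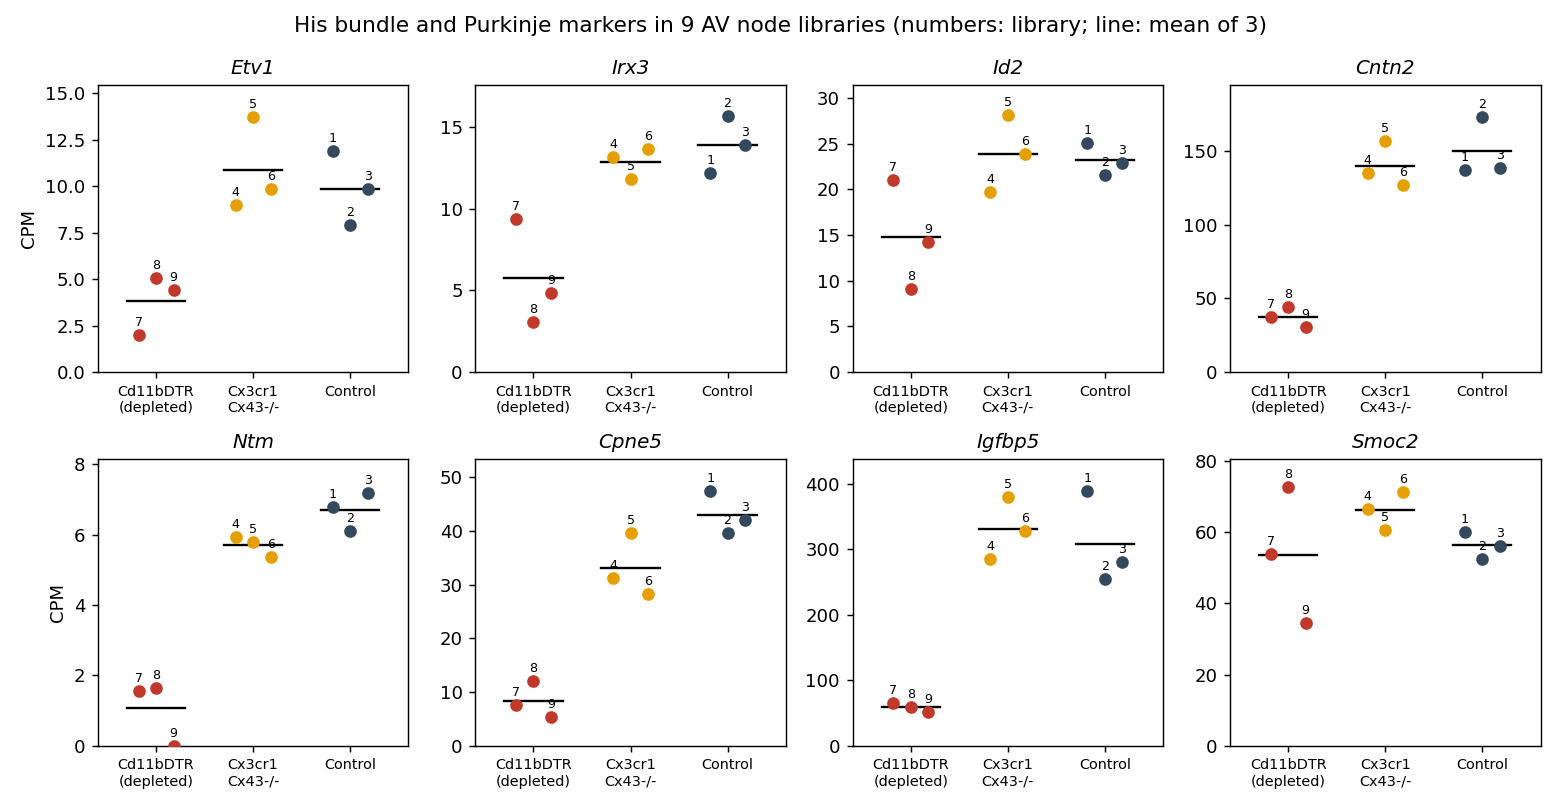
Expression of the 8 genes in CPM, 1 point per library, with Cd11bDTR, Cx3cr1 Cx43-/- and control libraries from left to right. The Cd11bDTR points lie below all control points for 7 genes, and for Smoc2 they span 34.56 to 72.79 CPM around the control range of 52.49 to 60.20 CPM.

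Levels can be compared between genes per kilobase of exon, using GENCODE M21 lengths (GRCm38), which may differ from the annotation the authors counted on. In control nodes the order was Igfbp5 (51.3 CPM per kb), Cntn2 (20.9), Smoc2 (18.5), Id2 (9.51), Cpne5 (7.54), Irx3 (5.04), Ntm (1.81) and Etv1 (1.37). Cntn2 and Smoc2 overlapped in their ranges over the 3 control libraries, at 19.1 to 24.2 and 17.3 to 19.8 CPM per kb. Ntm and Etv1 also overlapped, at 1.65 to 1.94 and 1.10 to 1.65 CPM per kb. In Cd11bDTR nodes the first place in mean level went to Smoc2, at 17.7 CPM per kb, with Igfbp5 at 9.78, Id2 at 6.06 and Cntn2 at 5.20 CPM per kb. The Cd11bDTR ranges of Igfbp5 and Smoc2 did not overlap, at 8.54 to 10.9 and 11.4 to 23.9 CPM per kb.

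The 8 genes were also set against markers of cardiomyocytes in general. The 8 cardiomyocyte markers summed to 21785, 15256 and 13319 CPM in Cd11bDTR libraries 7, 8 and 9, against 25510 to 28589 CPM in control libraries, and 2 of the 8 were called lower, where 33.0% of all tested genes were. Their median log2 change was -0.48, beside -0.49 over all genes. Expressed per 1000 CPM of that sum, Cntn2 was 2.30 ± 0.606 in Cd11bDTR and 5.61 ± 1.05 in control nodes, and Igfbp5 was 3.58 ± 0.499 in Cd11bDTR and 11.4 ± 1.94 in control nodes (SD, n = 3 each). For both genes every Cd11bDTR ratio lay below every control ratio. Id2 was 0.876 ± 0.251 in Cd11bDTR and 0.862 ± 0.0142 in control nodes per 1000 CPM, with overlapping ranges. Smoc2 was 3.28 ± 1.29 in Cd11bDTR and 2.09 ± 0.0327 in control nodes per 1000 CPM, with every Cd11bDTR library above every control library. The cardiomyocyte sum was lower in Cd11bDTR libraries, so a gene with an unchanged CPM would also rise in this ratio. The share of all tested genes without overlap was not computed for these ratios. Scaling each library by the mean log2 value of that list left Cntn2 (-1.43), Igfbp5 (-1.80), Cpne5 (-1.81), Ntm (-1.90) and Irx3 (-0.76) called lower, and Etv1, Id2 and Smoc2 uncalled (limma, adjusted p under 0.05). That made 5 of the 8 genes, where 8.73% of all tested genes were called lower. Rescaled to a common total, 6 of the 8 genes were called lower, where 19.6% of all tested genes were. With median-of-ratios scaling and with quantile normalization, 5 of the 8 genes were called lower, where 13.0% and 14.0% of all tested genes were. Under these 4 scalings, 0 of the 8 genes were called higher.

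**Figure D2:**
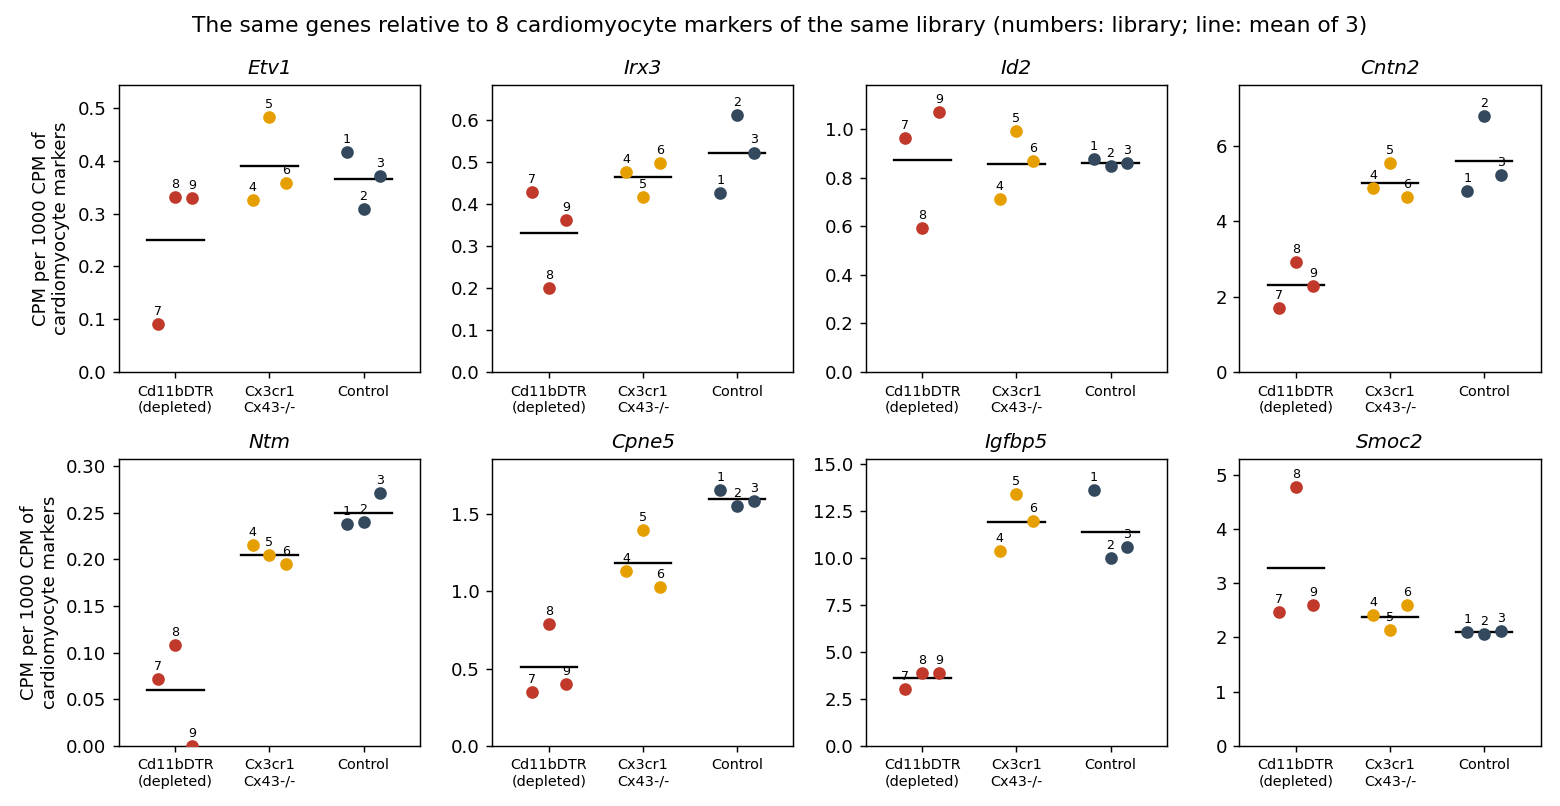
The 8 genes per 1000 CPM of the summed cardiomyocyte markers, 1 point per library, with Cd11bDTR left of Cx3cr1 Cx43-/- and control. Cd11bDTR means of 2.30 for Cntn2 and 3.58 for Igfbp5 stand below the control means of 5.61 and 11.4. The Cd11bDTR and control ranges of Etv1, Irx3 and Id2 overlap.

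**Figure D3:**
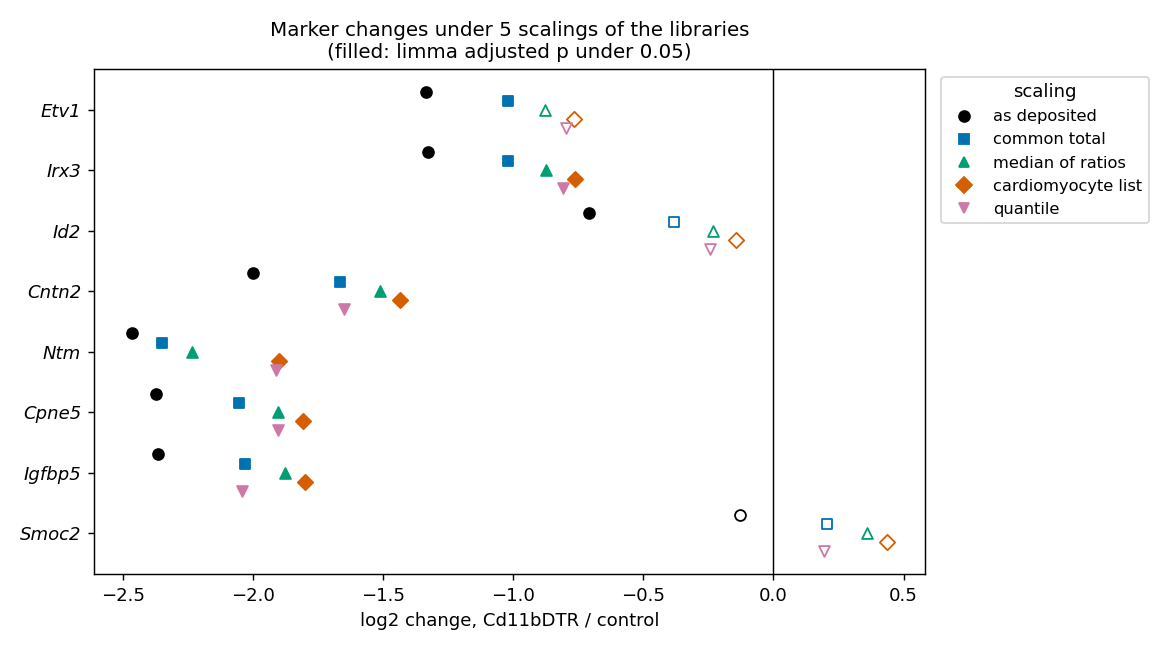
Log2 change in Cd11bDTR against control nodes for each gene as deposited and under 4 other scalings of the libraries. Igfbp5, Cpne5, Ntm and Cntn2 stay well below 0 in every scaling, and Smoc2 runs between -0.13 and 0.44.

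Markers of other cell types stood beside these results. The 6 Schwann cell markers summed to 22.9 to 25.3 CPM in Cd11bDTR and 40.1 to 58.2 CPM in control libraries, and 4 were called lower, where 33.0% of all tested genes were. Rescaled to a common total, 4 Schwann cell markers were called lower, where 19.6% of all tested genes were. With median-of-ratios scaling 2 were, where 13.0% of all tested genes were. With the cardiomyocyte list or quantile normalization 0 were, where 8.73% and 14.0% of all tested genes were. The 7 neuron markers summed to 19.8 to 22.5 CPM in Cd11bDTR and 17.5 to 21.7 CPM in control libraries. Of these markers, 2 passed the filter and 0 were called. Th and Chat were at 0 in all Cd11bDTR and all Cx3cr1 Cx43-/- libraries. Ntm and Cntn2 are also expressed in neurons, and bulk values do not show which cells any of the 8 genes came from. The 6 ventricular cardiomyocyte markers summed to a mean of 2950 ± 534 CPM in Cd11bDTR and 5090 ± 1231 CPM in control nodes (SD, n = 3 each). Of these 6, 4 were called lower, where 33.0% of all tested genes were. With a common total 3 of these 6 were called lower, where 19.6% of all tested genes were. With median-of-ratios scaling or the cardiomyocyte list 2 were, where 13.0% and 8.73% of all tested genes were. The 6 atrial cardiomyocyte markers summed to a mean of 4503 ± 1611 CPM in Cd11bDTR and 5448 ± 1445 CPM in control nodes (SD, n = 3 each). Of 5 tested atrial markers 1 was called lower, where 33.0% of all tested genes were. With median-of-ratios scaling 0 were, where 13.0% of all tested genes were. The 6 fibroblast markers summed to 1917 to 2115 CPM in Cd11bDTR and 2317 to 2618 CPM in control libraries, and 0 were called. The 5 endothelial markers summed to 131 to 221 CPM in Cd11bDTR and 244 to 366 CPM in control libraries. Of these 5, 2 were called lower, where 33.0% of all tested genes were. The 5 mural cell markers summed to 170 to 250 CPM in Cd11bDTR and 272 to 380 CPM in control libraries, with 4 called lower and 1 higher. Over all tested genes 33.0% were called lower and 3.23% higher. The lower calls of mural cell markers depended on the scaling. Only 1 was called lower once libraries were rescaled to a common total, where 19.6% of all tested genes were. Quantile normalization left 2, where 14.0% of all tested genes were lower. The cardiomyocyte list and the median of gene ratios left 0 mural cell markers lower, where 8.73% and 13.0% of all tested genes were. In each of these 4 rescalings the number called higher stayed at 1. The 5 adipocyte markers, of which 0 were called, summed to 25.3, 229 and 38.3 CPM in Cd11bDTR libraries 7, 8 and 9, against 7.92 to 66.9 CPM in Cx3cr1 Cx43-/- and 22.3 to 57.5 CPM in control libraries. Library 8 stood apart in that list. The part these markers play in the 7 falls was not tested.

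In nodes of Cx3cr1 Cx43-/- mice, 0 of the 8 genes were called against control, and 1 of the 12925 tested genes was (0.00774%, limma adjusted p under 0.05). An unadjusted p under 0.05 was reached by 191 genes. Voom called 1 gene. The median change of the 8 genes was -0.03, beside 0.07 for all tested genes. Cpne5 had the widest gap, at 33.0 ± 5.88 CPM in Cx3cr1 Cx43-/- and 43.0 ± 3.94 CPM in control nodes (SD, n = 3 each), a log2 change of -0.39 (95% interval -0.91 to 0.13, limma adjusted p = 1). For the other genes the log2 changes lay between -0.22 in Ntm and 0.23 in Smoc2. Cpne5 and Ntm were lower without overlap between libraries, a pattern held by 3.0% of tested genes, and Smoc2 was higher without overlap, held by 5.94%. For Cntn2 the 95% interval of the log2 change was -0.52 to 0.33, and for Igfbp5 it was -0.32 to 0.56.

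Against Cx3cr1 Cx43-/- nodes, Cd11bDTR nodes again had 7 of the 8 genes lower, where 40.7% of all tested genes were called lower and 2.69% higher (limma adjusted p under 0.05). This contrast is the difference between the changes of the 2 mutant groups against control. It shares the Cd11bDTR libraries with the first contrast, so the values stand side by side. The log2 changes against Cx3cr1 Cx43-/- nodes were -2.48 in Igfbp5 (limma adjusted p = 1.23e-08), -2.25 in Ntm (0.000283), -1.99 in Cpne5 (4.84e-06) and -1.90 in Cntn2 (5.26e-07). They were -1.46 in Etv1 (limma adjusted p = 0.000975), -1.23 in Irx3 (0.00293), -0.74 in Id2 (0.0255) and -0.36 in Smoc2 (0.203). The Id2 call was lost without library 5, 6 or 8 left out alone (limma adjusted p = 0.127, 0.0721 and 0.165), and Smoc2 was called without library 8 (-0.61, limma adjusted p = 0.0486). The median log2 change of the 8 genes was -1.68, beside -0.58 over all genes. Id2 and Smoc2 had overlapping libraries in this contrast, and 6 of the 8 genes did not overlap, where 50.6% of tested genes were lower without overlap. Rescaled to a common total, 6 of the 8 genes were called lower, where 20.9% of all tested genes were. With median-of-ratios scaling, the cardiomyocyte list and quantile normalization, 4 of the 8 genes were called lower, where 12.9%, 9.37% and 13.8% of all tested genes were. The genes that lost their calls under these 3 scalings were Etv1 (limma adjusted p between 0.0507 and 0.0934), Irx3 (between 0.0851 and 0.0996) and Id2 (between 0.490 and 0.689). Irx3 also lost its call without both libraries 8 and 9 (-0.44, limma adjusted p = 0.184).

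**Figure D4:**
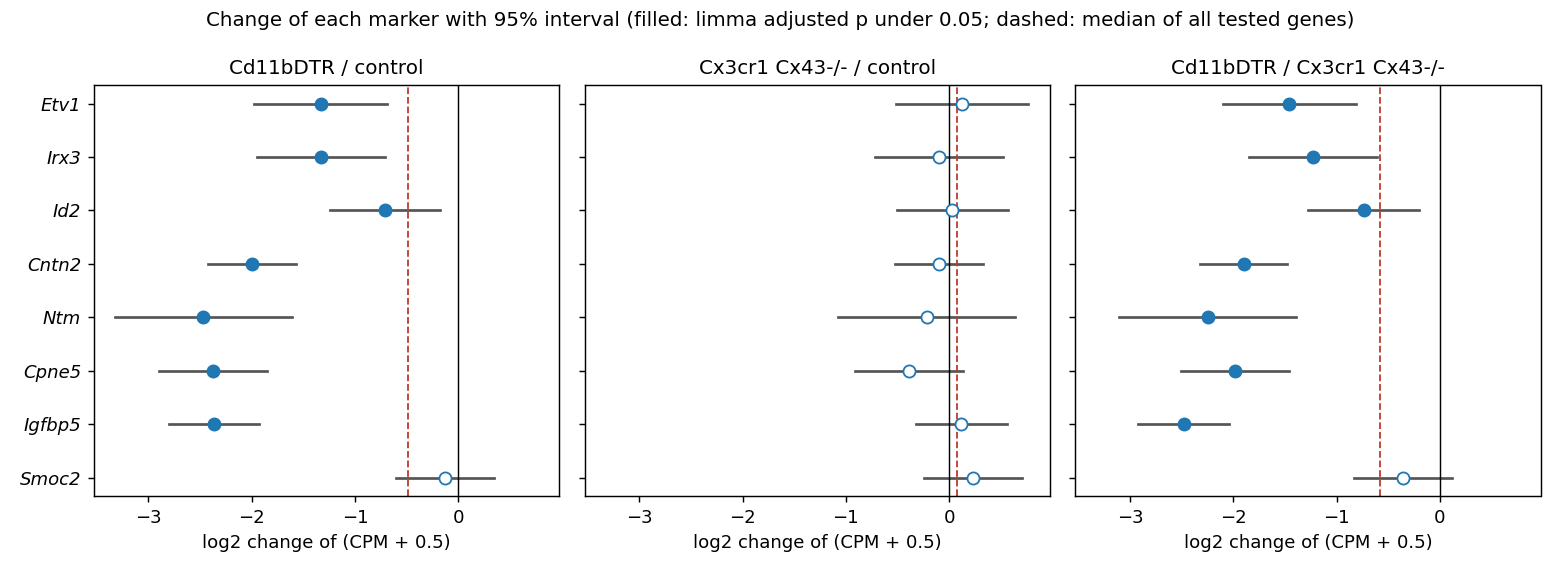
Log2 change of each gene with its 95% interval in the 3 comparisons, Cd11bDTR against control, Cx3cr1 Cx43-/- against control and Cd11bDTR against Cx3cr1 Cx43-/-. The intervals of Cntn2, Etv1, Irx3, Id2, Igfbp5, Cpne5 and Ntm lie below 0 in both Cd11bDTR comparisons, and all 8 intervals include 0 in Cx3cr1 Cx43-/- against control.

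Other genes with a part in conduction were followed as 2 lists, of regulators and of channels and connexins. Tbx3 in the regulator list and Hcn4, Cacna1g and Gjc1 in the channel list are also among the AV node markers above, so these lists do not separate fast from nodal conduction. Of 10 tested regulators, 7 were lower and 0 higher in Cd11bDTR than in control nodes (limma adjusted p under 0.05), where 33.0% of all tested genes were lower, with a median log2 change of -1.04. They included Tbx3 (-1.32), the neuregulin receptor Erbb4 (-1.26), the homeodomain-only factor Hopx (-1.24) and the zinc finger factor Gata4 (-1.14). Tbx5, Gata6 and Erbb2 did not pass the test, and under the 4 rescalings 5 or 6 regulators were called lower, where 8.73% to 19.6% of all tested genes were. Of 13 tested channel, connexin and related genes, 10 were lower and 0 higher, with a median of -1.65. Among all tested genes, 33.0% were lower. The 10 lower genes included the calcium channel subunits Cacna2d2 (-2.97) and Cacna1g (-2.12), the pacemaker channel Hcn4 (-2.54) and the potassium channel subunit Kcne1 (-2.23). Gja5, chosen after its values were seen, averaged 9.34 ± 3.38 CPM in Cd11bDTR and 35.1 ± 12.1 CPM in control nodes (SD, n = 3 each), a log2 change of -1.86 (limma adjusted p = 1.65e-05). Scn4b, a sodium channel subunit also chosen after its values were seen, had a log2 change of 0.65 (limma adjusted p = 0.124) and was called higher under all 4 rescalings. By the counts given above, median-of-ratios scaling and the cardiomyocyte list also gave more higher calls over all tested genes than the deposited values. Under the 4 rescalings 8 to 10 genes of this list were called lower, where 8.73% to 19.6% of all tested genes were. In Cx3cr1 Cx43-/- against control nodes, 0 genes of either list were called.

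Relatives of the 8 genes were not all lower. Over all tested genes, 3.23% were called higher in Cd11bDTR against control nodes as deposited. By the counts given above, more were with median-of-ratios scaling and with the cardiomyocyte list. Of the other Id genes, Id1 (0.34), Id3 (0.28) and Id4 (0.40) were not called in Cd11bDTR against control nodes, and Id1 and Id3 were called higher under all 4 rescalings. Of 4 tested Iroquois genes, Irx4, a ventricular factor in the mouse, had a log2 change of -2.11 (limma adjusted p = 1.65e-05) and Irx5 one of -1.17 (0.00738). Of 4 tested Igfbp genes, Igfbp3 was lower at -1.32 (limma adjusted p = 0.000417). Igfbp7 averaged 342 ± 48.2 CPM in Cd11bDTR and 239 ± 15.3 CPM in control nodes (SD, n = 3 each). That is a log2 change of 0.50 (limma adjusted p = 0.0559), and it was called higher under all 4 rescalings, as was Igfbp4 (0.30 as deposited, 0.55 to 0.87 rescaled). The IgLON genes Opcml (-1.16) and Negr1 (-0.91), the copine Cpne2 (-1.17) and the Smoc2 relative Smoc1 (-0.89) were lower, while 0 of 5 other contactin genes passed the filter. Under the 4 rescalings the IgLON genes and Smoc1 were not called, and Irx5 and Cpne2 were called lower only with a common total. Another copine, Cpne8, was not called as deposited (0.48) and was called higher under 3 of the 4 rescalings (0.93 to 1.04). The nearest relatives of Etv1, Etv4 (0.68) and Etv5 (-0.19), were not called as deposited, and Etv4 was called higher under 2 of the 4 rescalings.

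**Figure D5:**
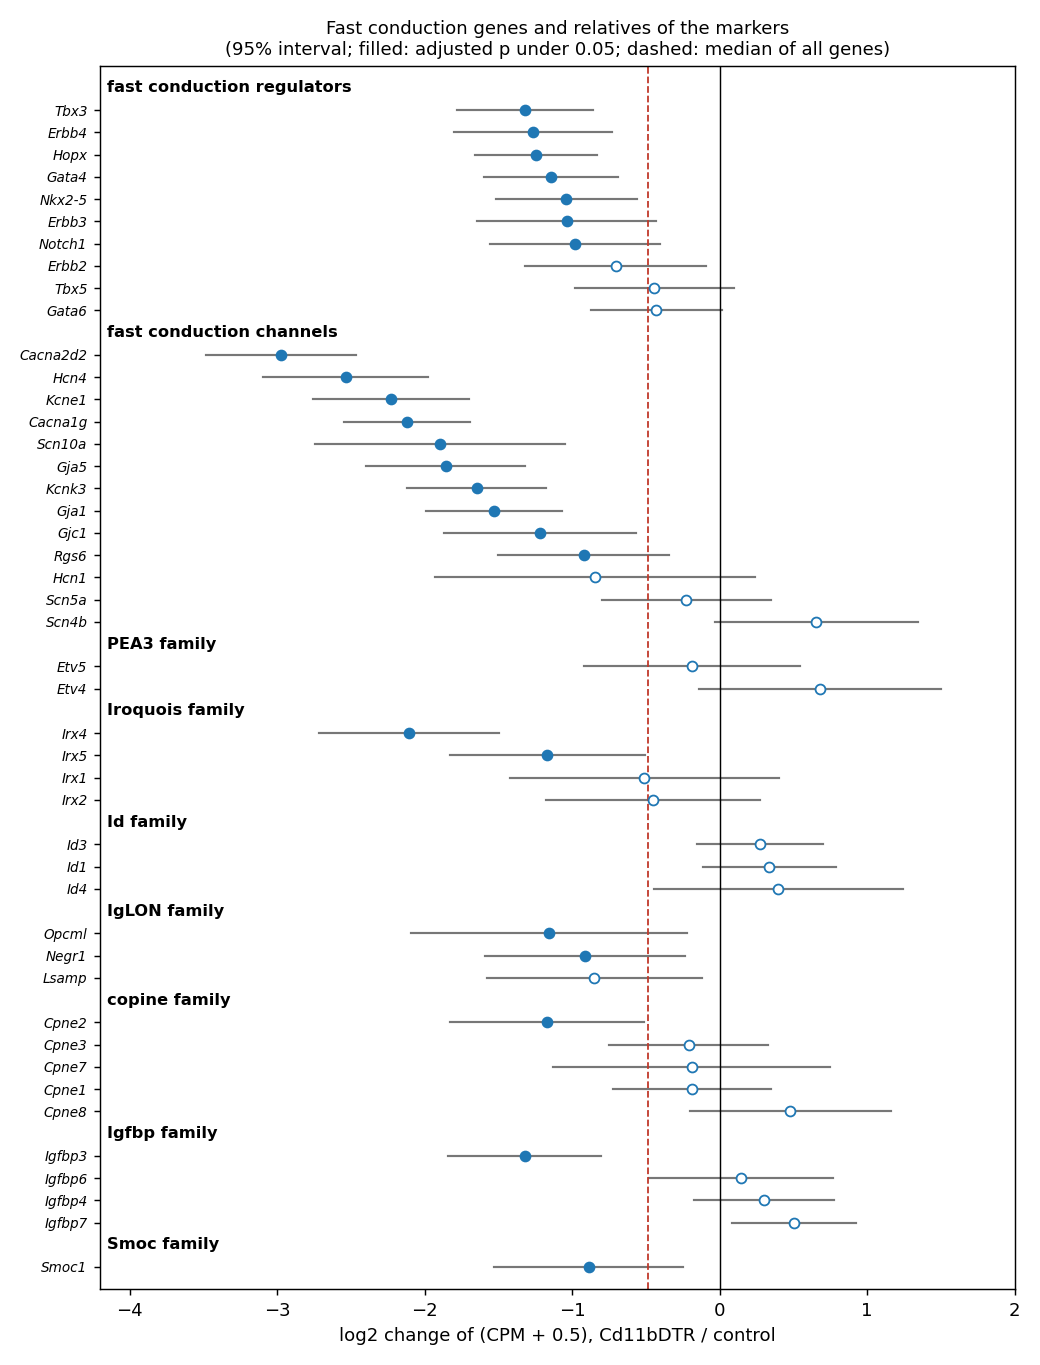
Log2 change in Cd11bDTR against control nodes for the genes of the 2 conduction lists and of the relatives of the 8 genes. Most conduction genes lie below 0, with Cacna2d2 at -2.97 the lowest, while Id1, Id3, Id4 and Igfbp7 lie above 0.

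Across the 9 libraries the centred log2 profiles of Cntn2 and Cpne5 were the closest pair among the 8 genes (root mean square difference 0.256), and those of Ntm and Smoc2 the farthest (1.07). The genes nearest in profile to Cntn2 were Adamts7 (0.157), Asb10 (0.177) and Abcb9 (0.186). Those nearest to Igfbp5 were Klhl32 (0.152), Vsig2 (0.175) and Pla2g5 (0.179), and those nearest to Cpne5 were Trp53i11 (0.196), Lpar3 (0.202) and Shank2 (0.220). Those nearest to Ntm were Rapsn (0.227), Hcn2 (0.282) and Dbh (0.313). For Etv1 they were Pnpla3 (0.123), Enpp2 (0.126) and Ppp1r16b (0.190), and for Irx3 they were Chst15 (0.135), Wnt5b (0.142) and Hrsp12 (0.143). For Id2 they were Nav1 (0.0822), Ocrl (0.109) and Scara3 (0.118), and for Smoc2 they were Pstk (0.0904), Sh3bgrl (0.0983) and Fam122b (0.101). The likeness is over 9 libraries in 3 groups and carries no test.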

How the data were processed

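Bulk RNA was measured in 9 libraries of AV node, 3 per group. Per the labels' protocols, total RNA was DNase-treated and made into strand-directional libraries. Tools named in the submitters' processing notes, with no role, are HTSeq 0.6.0, STAR 2.3.0 and edgeR, with the mm9 build; the annotation is not given. The authors deposited CPM rounded to 2 decimals, and the columns sum to 28.3% to 48.7% of the total CPM is scaled to. In each library 100% of the values above 0 were a whole multiple of 1 read within the rounding of 0.005 CPM, where chance gives 52.1% to 64.9%. Library totals and reads per gene used here were inferred from that CPM value of 1 read.

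Values were analysed as log2(CPM + 0.5), which understates changes of low genes, with limma 3.58.1 (R 4.3.3), trended empirical Bayes and all 9 libraries in 1 model. Genes needed 1 CPM in at least 3 libraries, and calls used a Benjamini-Hochberg adjusted p under 0.05 over 12925 genes, two-sided. With 3 against 3 an exact permutation test cannot go below 0.1. SD and SE are over 3 libraries and from the fit. The fit was tested on simulated data. All 8 genes were named, called or not. For each list, up to 4 called genes with the smallest p were named, and the 3 nearest profiles per gene. The 8 genes and the lists were chosen with earlier results of these data known. Alternatives were other pseudocounts, filters and scalings, library weights, robust fits, and libraries left out. Python 3.11.15 and matplotlib 3.10.9 read sequences and drew figures.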

Additional observations from a re-analysis of the deposited data

How the results depend on the processing

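No paired analysis was possible because the groups share no replicate numbers. Left out in turn, the 9 libraries gave 6 to 7 of the 8 genes called in Cd11bDTR against control nodes, 6 to 7 against Cx3cr1 Cx43-/- nodes and 0 in Cx3cr1 Cx43-/- against control nodes. The counts over all tested genes were 2664 to 6274, 3302 to 7049 and 0 to 2 in the same order, against 4678, 5604 and 1 with every library, with the lowest of the first contrast without control library 1 and of the second without Cx3cr1 Cx43-/- library 5. Scaled to the cardiomyocyte list the counts over all genes were 3116 and 2992 in the Cd11bDTR contrasts, and against Cx3cr1 Cx43-/- nodes they were 3365 with median-of-ratios scaling and 3356 with quantile normalization. Each of these 3 scalings left 4 of the 8 genes called in that contrast. Without both Cd11bDTR libraries 8 and 9, a choice made after seeing the data, 5 genes and 2570 of all genes were called against control and 5 and 2876 against Cx3cr1 Cx43-/- nodes, with the lone library assumed to vary like the others. For Cx3cr1 Cx43-/- against control nodes the count over all genes was 0 with a pseudocount of 0.1, 2 with a pseudocount of 2, 0 with no filter and 4 with library weights. Smoc2 turned positive in Cd11bDTR against control nodes with a common total (0.20), median-of-ratios (0.36), the cardiomyocyte list (0.44), quantile normalization (0.19) and library weights (0.18), and spanned -0.38 to 0.15 with libraries left out. Against Cx3cr1 Cx43-/- nodes it was 0.026, 0.21, 0.25 and 0.028 under those 4 scalings. In Cx3cr1 Cx43-/- against control nodes Id2 was -0.020, -0.045, -0.011 and -0.026 under them. With libraries left out, the ranges there were -0.092 to 0.16 for Id2, -0.18 to 0.013 for Cntn2, -0.047 to 0.26 for Etv1 and -0.0050 to 0.30 for Igfbp5. Ntm has no value at a mean of 5 CPM. Voom on the inferred reads, also chosen after seeing the data, called 7, 7 and 0 of the 8 genes and 4387, 5359 and 1 of all genes in the order above. The cause of these shifts was not tested.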
